A study of Mus musculus with 5 samples.

Results

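H3K36me3 peaks that lie far from annotated genes in medullary thymic epithelial cells are the subject here. A peak was taken as far from genes when it touched no RefSeq gene span of any biotype and lay more than 5 kb from every protein-coding gene span on mm10. Series 1 held 1617 such peaks among 7231 and series 2 held 2895 among 10243, together 4512 of 17474. The rule used position alone and no measured value.

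The samples were sorted mTEClo, medullary thymic epithelial cells low in CD80 and in Ly51 that carry EpCAM and bind the lectin UEA-1, from the thymus of wild-type mice of the B6 strain. They comprised 2 libraries of chromatin immunoprecipitated with an antibody to H3K36me3, named series 1 and series 2, and 3 input libraries made with no antibody, 2 for series 1 and 1 for series 2. The labels name no treatment and no age. They say that individual mice were used but not which mouse gave which library, so differences between the 2 lists may be purely technical. Each ChIP library has its own list of broad peaks with the authors' whole-number score and no read counts, so sequencing depth is unknown, and a place with no peak was below detection in that library.

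Trimethylation of lysine 36 on histone H3 is laid down by the methyltransferase SETD2, which travels with elongating RNA polymerase II, so that the mark builds up along the bodies of transcribed genes and towards their 3′ ends. Sequence far from annotated genes holds enhancers, unannotated transcripts, repeats and long gene-poor stretches called gene deserts. In the medullary epithelium of the thymus, which displays proteins of many tissues to developing T cells, annotation drawn from other tissues may be incomplete.

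No genome sequence of the build was used here, so the bases of far peaks could be read only where a RefSeq promoter window (250 bases before to 50 after a gene's start, GRCm38.p6) reached into one. This was so for 2 of the 4512 far peaks, each beside a lncRNA gene, and these windows are shown because they are the readable sequence of members. Capitals mark the bases that lie under the peak, and each window runs 5′ to 3′ on the strand of its gene.

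Gm29857 window, chr2:5727742-5728041, plus strand: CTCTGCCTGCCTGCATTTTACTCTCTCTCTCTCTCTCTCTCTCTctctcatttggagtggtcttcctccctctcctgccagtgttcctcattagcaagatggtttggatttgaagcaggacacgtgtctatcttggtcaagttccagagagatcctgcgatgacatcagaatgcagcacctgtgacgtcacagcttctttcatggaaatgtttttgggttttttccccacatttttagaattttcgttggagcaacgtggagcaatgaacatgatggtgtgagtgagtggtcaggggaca

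Gm34974 window, chr9:61898723-61899022, minus strand: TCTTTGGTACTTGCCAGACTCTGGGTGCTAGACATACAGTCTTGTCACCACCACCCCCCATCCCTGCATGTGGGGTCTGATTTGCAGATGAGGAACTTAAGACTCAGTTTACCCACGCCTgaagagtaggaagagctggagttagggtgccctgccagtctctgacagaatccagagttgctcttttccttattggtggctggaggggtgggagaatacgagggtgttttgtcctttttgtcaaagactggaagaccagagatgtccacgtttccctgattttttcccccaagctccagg

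The Gm29857 window met a series 2 peak at chr2:5727558-5727785, which scored 12, lay 207 bp from the gene's span and 12.7 kb from Camk1d, and shared 44 bases with the window. The shared bases held no CG dinucleotide and had 50% G or C. They ran into a CT repeat of 28 bases, from base 21 to base 48 of the window. The Gm34974 window met a series 1 peak at chr9:61898903-61899310, which scored 22, lay 131 bp from the gene's span and 13.97 kb from Rplp1, a gene for a ribosomal stalk protein. It shared 120 bases with the window, with 1 CG dinucleotide and 51.7% G or C, and the longest CT repeat of this window was 4 bases. Neither peak was met by a peak of the other list.

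Far peaks made up a smaller part of each list than sequence meeting the same rule made up of the annotated genome. They were 22.4% of series 1 peaks (exact binomial 95% interval 21.4 to 23.3%) and 28.3% of series 2 peaks (27.4 to 29.1%), which is 25.3% ± 4.17 (SD, n = 2). They held 890.5 kb in series 1, 20.1% of its peak bases, and 780 kb in series 2, 23.1%. Sequence that meets the same rule made up 48.98% of the 2703 Mb between the first and last annotated gene or peak of each chromosome. This includes assembly gaps and 85.0 Mb on the Y chromosome, which held 2 far peaks in series 1 and 1 in series 2. Binomial and Poisson intervals here cover counting error only, since peaks within a list are not replicates. An exact two-sided test on 2 lists cannot give a p below 0.5, so comparisons of far peaks with other peaks are given with no test.

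Per megabase, far territory, meaning the sequence that meets the rule, carried 1.22 peaks in series 1 (exact Poisson 95% interval 1.16 to 1.28), against 4.99 within protein-coding genes (4.86 to 5.13). In series 2 it carried 2.19 (2.11 to 2.27), against 6.20 (6.05 to 6.35). Coding genes thus held 4.09 and 2.84 times as many peaks per megabase in series 1 and 2, and 4.74 and 3.84 times as many peak bases. The far density was the lower on 19 of 19 autosomes in each list. Over the autosomes alone it was 1.37 peaks per Mb in series 1, against 5.17 within coding genes, and 2.38 in series 2, against 6.32.

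Beyond 5 kb the density of peaks did not fall further with distance. In series 2 it was 2.31 peaks per Mb at 5 to 10 kb from a coding gene, 2.35 at 10 to 20 kb, 2.18 at 20 to 50 kb, 1.92 at 50 to 100 kb, 2.12 at 100 to 200 kb, 2.20 at 200 to 500 kb and 2.31 beyond 500 kb. The interval of the farthest class, 2.12 to 2.52, lay within that of the nearest, 2.01 to 2.64. In series 1 the density was 1.05, 1.03, 1.01, 1.05, 1.30, 1.42 and 1.43 peaks per Mb over the same classes. There the classes beyond 200 kb lay above those between 10 and 100 kb, with intervals that did not overlap. On the autosomes alone series 1 had 1.11 peaks per Mb at 5 to 10 kb, 1.22 at 50 to 100 kb (1.05 to 1.41), 1.64 at 200 to 500 kb (1.48 to 1.81) and 1.47 beyond 500 kb (1.31 to 1.65), so that the last class then overlapped that of 50 to 100 kb. Series 2 had 2.39 at 5 to 10 kb and 2.38 beyond 500 kb.

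**Figure D1:**
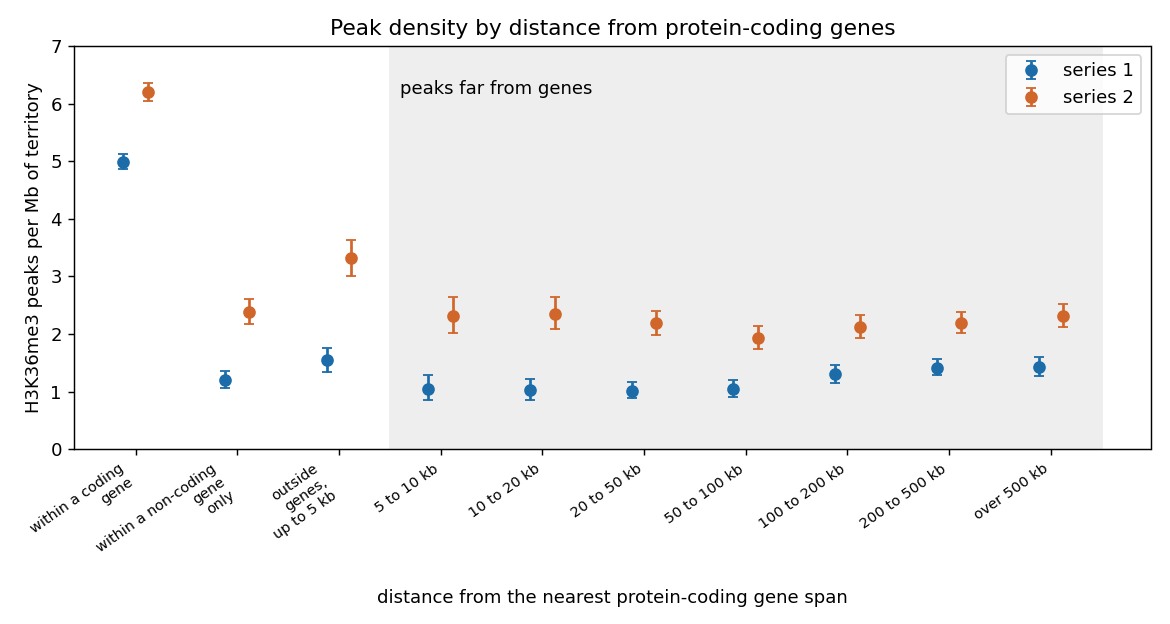
Peaks per Mb of territory (y axis) by distance from the nearest protein-coding gene span (x axis), for series 1 and series 2, with exact Poisson 95% intervals as bars and far classes shaded. Both series drop outside coding genes, from 5 kb outward series 2 stays between 1.92 and 2.35 peaks per Mb, and series 1 goes from about 1.05 to 1.43.

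The densities of peaks beyond the 2 ends of a gene had intervals that overlapped. Since H3K36me3 builds up towards the 3′ end, peaks beyond the 3′ end of the nearest coding gene were set beside those beyond its 5′ end, for genes whose strand was known. At 5 to 10 kb series 1 had 33 peaks downstream, 0.949 per Mb (0.653 to 1.33), and 39 upstream, 1.00 per Mb (0.714 to 1.37). Series 2 had 79 downstream, 2.27 per Mb (1.80 to 2.83), and 96 upstream, 2.47 per Mb (2.00 to 3.02). Over all far peaks the densities were 1.22 downstream and 1.21 upstream in series 1, and 2.08 (1.95 to 2.21) and 2.28 (2.16 to 2.41) in series 2. The strand was unknown for 23.2% of far territory, with 384 far peaks of series 1 and 672 of series 2.

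Most far peaks, like most far territory, lay more than 100 kb from a coding gene. The median distance to a protein-coding gene was 150.4 kb in series 1 (interquartile range 44.0 to 410.7 kb) and 119.8 kb in series 2 (32.6 to 365.3 kb). More than 100 kb separated 60.7% of series 1 far peaks and 54.1% of series 2 far peaks from any coding gene, 57.4% ± 4.67 (SD, n = 2), and more than 1 Mb separated 5.88% and 5.70%. Of the 1324 Mb of far territory, 211 Mb lay at 100 to 200 kb from a coding gene, 274 Mb at 200 to 500 kb and 223 Mb beyond 500 kb. Non-coding genes and pseudogenes were closer, at a median of 43.3 and 40.5 kb, and 9.03% and 10.0% of far peaks lay within 5 kb of one. The nearest such gene was a pseudogene for 45.7% of series 1 far peaks and 41.3% of series 2 far peaks, and a lncRNA gene for 41.8% and 45.6%. A miRNA gene was the nearest for 27 and 52 peaks, 1.67% and 1.80%. The share of each kind among all non-coding genes was not set beside these values, so the part of the annotation's make-up in them was not tested.

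Several of the farthest members sat in gene deserts around protocadherin genes, which encode neuronal adhesion proteins. On chromosome 14 between Pcdh20 and Pcdh9, series 1 had peaks at chr14:90638948-90639576, 2168 kb from Pcdh20 with a score of 22, and at chr14:91069926-91070389 and chr14:91079982-91080246, 1943 and 1933 kb from Pcdh9 with scores of 26 and 17. In the same desert series 2 had its farthest peak, at chr14:90762390-90762610, 2251 kb from Pcdh9 with a score of 12. It also had a peak at chr14:82323103-82323326, 2120 kb from Pcdh17, with a score of 41. A desert on chromosome 8 held 1 of the 5 farthest peaks of each list, at chr8:51530483-51530906 in series 1, 1981 kb from Aga, a gene for a lysosomal enzyme, and at chr8:51490569-51490790 in series 2, 1968 kb from Tenm3, a teneurin adhesion gene. On chromosome 18, far peaks of series 1 and series 2 lay 1906 kb from Pik3c3 and 2044 kb from Celf4. Series 2 also had a peak 2096 kb from Cntnap5b on chromosome 1. None of these touched a peak of the other list.

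At the other end, the far peaks closest to the 5 kb limit were in series 1 those beside Trib1 at 5.02 kb and Gm21992 at 5.05 kb, with scores of 10 and 23. In series 2 they were beside Arid5b at 5.04 kb and Pramel7 at 5.06 kb, with scores of 30 and 12. Just inside the limit, and so left out, lay series 1 peaks beside Fbxl5 at 4.95 kb and Gnai1 at 4.94 kb, with scores of 17 and 19. The same held for series 2 peaks beside Caprin2 at 5.00 kb and Pknox2 at 4.98 kb, both with a score of 12.

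Far peaks were narrower than peaks in coding genes, throughout the middle and upper range of widths in series 1 and mainly in the upper range in series 2. In series 1 the median width was 416 bp for far peaks and 523 bp for peaks in coding genes, and the upper quartile was 769 and 876 bp. Above 1 kb lay 176 far peaks of series 1 (10.9%, exact binomial 95% interval 9.41 to 12.5%), against 16.7% of peaks in coding genes (15.7 to 17.7%) and 15.0% of all peaks. In series 2, where most peaks were near the narrowest width of the list, the medians were 221 and 223 bp and the upper quartiles 225 and 350 bp. There 315 far peaks (10.9%, 9.77 to 12.1%) were wider than 250 bp, against 29.5% in coding genes (28.4 to 30.7%) and 22.7% of all peaks. Above 1 kb series 2 had 49 far peaks (1.69%, 1.26 to 2.23%), against 5.44% in coding genes (4.90 to 6.02%) and 4.06% of all peaks. The limit of 250 bp did not divide series 1 in this way, since 90.0% of its far peaks, 92.5% of its coding peaks and 91.6% of all its peaks were wider.

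**Figure D2:**
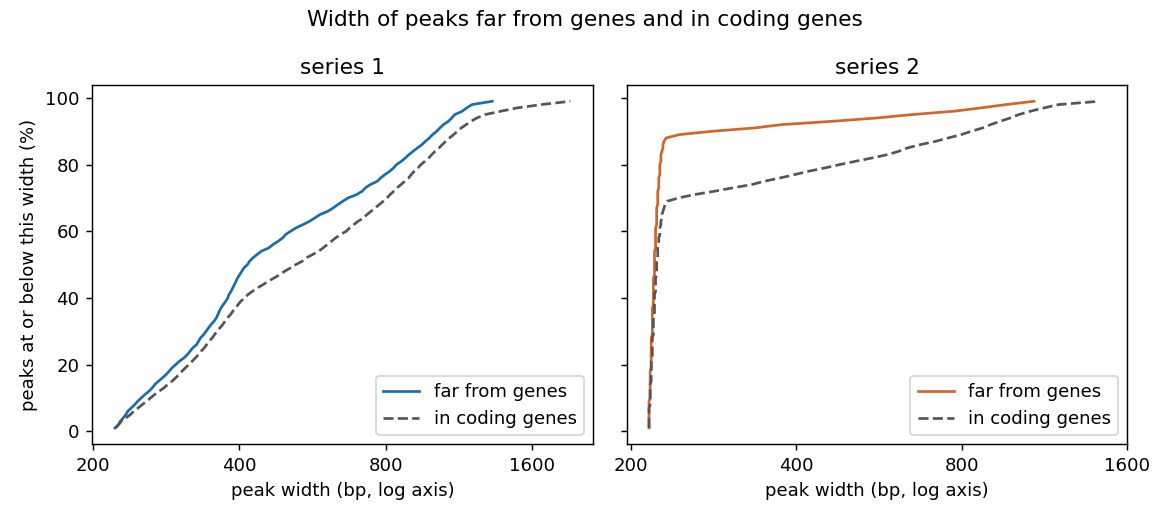
Cumulative percentage of peaks (y axis) at or below a width in bp (x axis, log scale) in series 1 and series 2, with peaks far from genes as solid and peaks in coding genes as dashed lines. The solid lines lie above the dashed ones, with 10.9% of far peaks and 29.5% of coding peaks of series 2 wider than 250 bp.

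Scores of far peaks were somewhat lower than those of peaks in coding genes in series 1 and closer to them in series 2. The score is the authors' own value for a peak, and it was used only within a list. Its median was 19 for far peaks and 21 for peaks in coding genes in series 1, and 16 for both classes in series 2. A score of at least 20 was reached by 808 far peaks of series 1 (49.97%, exact binomial 95% interval 47.5 to 52.4%), against 57.8% in coding genes (56.4 to 59.1%) and 55.8% of all peaks, with no overlap of the intervals of far and coding peaks. In series 2 it was reached by 1010 far peaks (34.9%, 33.2 to 36.7%), against 36.5% in coding genes (35.3 to 37.7%) and 35.7% of all peaks, with intervals that overlapped. A score of at least 50 was reached by 83 far peaks of series 1 (5.13%, exact binomial 95% interval 4.11 to 6.32%), against 6.49% in coding genes and 6.26% of all peaks, and by 64 far peaks of series 2 (2.21%, 1.71 to 2.81%), against 2.63% in coding genes and 2.48% of all peaks. At this threshold the intervals of far and coding peaks overlapped in each list. The highest score of each list, 378 in series 1 and 483 in series 2, belonged to a far peak, where coding genes reached 295 and 195.

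Far peaks recurred between the lists much less often than peaks in coding genes. Only 13 far peaks of series 1 touched a peak of series 2 (0.804%, exact binomial 95% interval 0.429 to 1.37%), against 6.60% of peaks in coding genes (5.94 to 7.31%) and 4.98% of all peaks. In series 2 the same 13 places gave 0.449% (0.239 to 0.767%), against 5.32% of peaks in coding genes (4.78 to 5.89%) and 3.52% of all peaks. Each far peak in a pair met another far peak. Far territory held 9.82 shared peaks per Gb, against 329.6 per Gb within coding genes in each list. Peaks of either kind were also sparser there, at 1.22 against 4.99 per Mb in series 1 and 2.19 against 6.20 in series 2. The part of this density in the difference in recurrence was not tested. When peaks of the other list within 1 kb counted too, 24 and 23 far peaks had a partner, 1.48% and 0.794%. Within 50 kb 19.98% of series 1 far peaks and 11.7% of series 2 far peaks had a far peak of the other list. Shares within 1 kb and 50 kb were not computed for peaks in coding genes. How many such partners the density of peaks alone would give was not tested.

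The difference in recurrence was also present in most classes of like width or like score, and its cause was not tested. Among peaks wider than 250 bp and up to 1 kb, 7 of 1280 far peaks touched the other list in series 1 (0.547%, 0.220 to 1.12%), against 5.69% in coding genes, and 5 of 266 in series 2 (1.88%, 0.613 to 4.33%), against 10.8%. Among peaks scoring 20 to 49, it was 6 of 725 in series 1 (0.828%, 0.304 to 1.79%), against 7.08% in coding genes, and 4 of 946 in series 2 (0.423%, 0.115 to 1.08%), against 6.55%. At scores of 100 or more the classes could not be separated, with 2 of 8 far peaks in series 1, against 12 of 42 in coding genes, and 3 of 11 in series 2, against 2 of 14. Intervals also overlapped in series 2 for peaks over 1 kb, at 6.12% (1.28 to 16.9%), against 16.1% in coding genes (12.4 to 20.4%), and for scores of 50 to 99, at 3.77% (0.460 to 13.0%), against 15.6% (10.2 to 22.3%).

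Of the 13 recurring places, 7 were at the start of chromosome 9 or were single strong or wide peaks on chromosomes 2, 14 and Y. These 7 gave 8.89 kb of the 9.77 kb that far pairs shared, or 91.0%. The strongest place on chromosome 2 and the start of chromosome 9 are known in the mouse genome as spots where sequencing reads pile up in many kinds of experiment. Reads of the input libraries were not analysed here, so the part of such pile-up in these peaks was not tested. Without the 7 pairs, 6 were left, 0.373% of the remaining far peaks in series 1 and 0.208% in series 2.

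The strongest of all was the pair at chr2:98666726-98667297 in series 1 and chr2:98666664-98667311 in series 2. It scored 378 and 483, the highest of each list. The peaks shared 572 bp, 100% of the series 1 peak, and lay 1035 kb beyond the 3′ end of Lrrc4c, which encodes a synaptic adhesion protein, and 35.3 kb from the lncRNA gene Gm33780. A second peak of series 2 lay close by, at chr2:98662238-98662457, with a score of 178 and no partner in series 1.

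On chromosome Y the peaks at chrY:90811297-90813764 and chrY:90811374-90813784 scored 158 in series 1 and 138 in series 2 and shared 2391 bp. They lay 66.2 kb from Gm52481 and 4.45 kb from the lncRNA gene Gm33272. This place held the only far peak of series 2 on the Y chromosome and 1 of the 2 of series 1. On chromosome 14 the widest far peak of each list, at chr14:19415834-19419229 and chr14:19415739-19419416, scored 52 and 53. The pair shared 3396 bp, 114.5 kb from Gm2244 and 10.6 kb from the pseudogene Gm9637.

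The start of chromosome 9 held the largest group of far peaks. When far peaks of both lists were joined over gaps of at most 50 kb, the group ran over 36.7 kb, at chr9:3000010-3036726, with 5 peaks of series 1 covering 4.72 kb and 9 of series 2 covering 4.85 kb. Scores along the group were 34, 16, 35, 35 and 27 in series 1, and 41, 24, 37, 12, 15, 21, 85, 19 and 211 in series 2. In 4 places the lists touched, at offsets of 0.017, 15.3, 25.1 and 35.7 kb from the group's start. The nearest coding gene was Alkbh8, which encodes a tRNA-modifying enzyme, 298.5 kb away.

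The nearest annotated gene was Mir101c, 1.94 kb from the last peak. Its mature product is shown because it comes from the annotated gene nearest to the group, with the seed (bases 2 to 8) in capitals and RefSeq's sequence on GRCm38.p6, at chr9:3038680-3038698 on the minus strand.

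mmu-miR-101c: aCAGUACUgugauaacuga

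No other mature miRNA in the RefSeq table carried this seed.

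**Figure D3:**
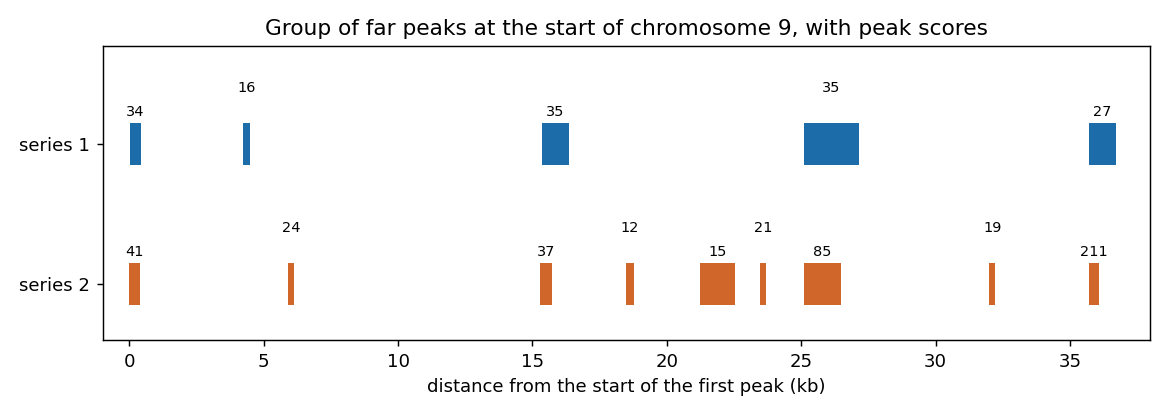
Far peaks of series 1 (upper row) and series 2 (lower row) at the start of chromosome 9, drawn to scale by distance in kb from the first peak's start (x axis), with the authors' score above each bar. The lists touch near 0, 15.3, 25.1 and 35.7 kb, and the last place scores 27 in series 1 and 211 in series 2.

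The other 6 pairs shared 97 to 231 bp, with scores of 14 to 31 in series 1 and 12 to 40 in series 2. At chr15:13642180-13643186 in series 1 and chr15:13643078-13643295 in series 2 the scores were 29 and 40, 465.8 kb upstream of Cdh6, a cadherin gene. At chr6:74492381-74493178 and chr6:74492428-74492658 they were 16 and 38, 1023 kb from 4931417E11Rik. At chr12:109213604-109213981 and chr12:109213827-109214456 they were 31 and 14, 145.4 kb upstream of Begain, a gene of postsynaptic neurons. The pair at chr3:26581199-26581476 and chr3:26581306-26581531 scored 17 and 19, 56.1 kb upstream of Spata16, a gene of sperm development. That at chr2:134275090-134275606 and chr2:134274987-134275207 scored 16 and 12, 221.8 kb beyond Hao1, a liver oxidase gene. That at chr10:67442667-67443080 and chr10:67442984-67443202 scored 14 and 12, 91.4 kb upstream of Egr2, a zinc finger transcription factor of hindbrain and Schwann cells. This last pair was named after its values were seen.

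Scores of recurring far peaks varied together over all 13 pairs, but not within the group at the start of chromosome 9. Over the 13 pairs Spearman's rho was 0.71 and Pearson's r was 0.91, and without the pair of highest score rho was 0.63 and r was 0.45. Without the 4 pairs of chromosome 9, rho over the other 9 was 0.85 and r was 0.99, with the strong pairs of chromosomes 2 and Y kept. The chromosome 9 pairs scored 35 and 85, 34 and 41, 35 and 37, and 27 and 211 in series 1 and 2. No coefficient was computed for the 6 pairs at other places alone. Peaks of 1 library share their background and the lists were called against different inputs, so these values are a description with no p.

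**Figure D4:**
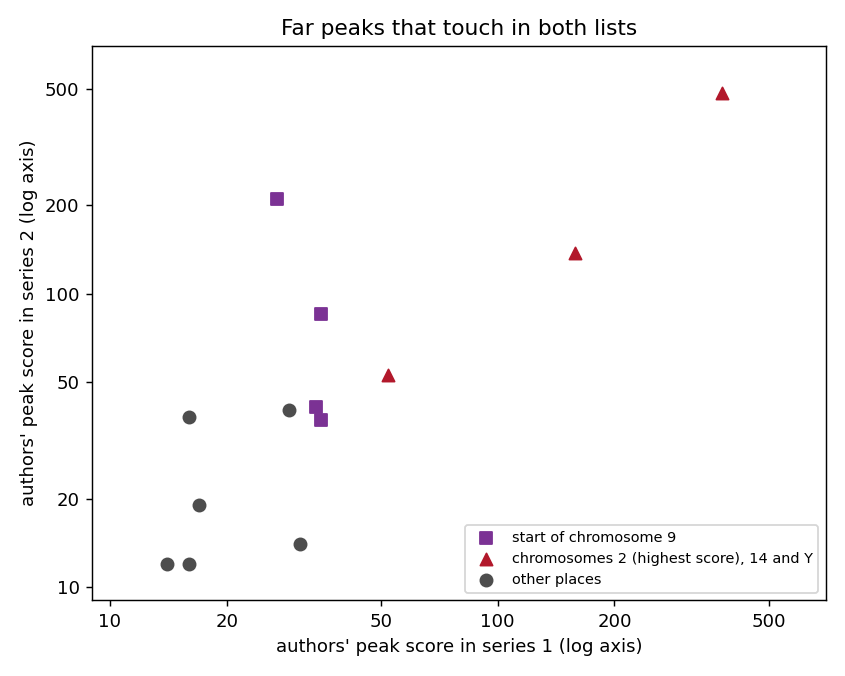
Authors' score in series 1 (x axis, log scale) and series 2 (y axis, log scale) of the 13 pairs of far peaks that touch in both lists, by place. The 6 pairs at other places score 14 to 31 and 12 to 40, and the highest pair 378 and 483.

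Some of the highest scored far peaks had no partner in the other list. The 6 pairs outside the start of chromosome 9 and the places on chromosomes 2, 14 and Y reached at most 31 in series 1 and 40 in series 2. Those 7 places were set apart partly for their strong or wide peaks. The low scores of the other 6 pairs thus follow in part from that choice and show nothing about where strong peaks recur. In series 1 the peak at chr7:29540965-29541190, 21.8 kb upstream of Sipa1l3, scored 309, the second highest of its far peaks, over a width of 226 bp. Others were chr13:69465697-69466969 beside Tent4a, a noncanonical poly(A) polymerase gene, with 154, chr15:50998160-50998558 beside Trps1, a transcription factor gene, with 153, and chr2:137959968-137960380 beside Btbd3 with 141. The peak at chr5:50848059-50848376, 605.9 kb from Ppargc1a, a coactivator of mitochondrial genes, scored 121. The peak at chr16:82795733-82796004, 1171 kb from the adhesion gene Ncam2, scored 107. None of these 6 touched a peak of series 2.

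In series 2 the peak at chr4:75716303-75716536, 224.7 kb from the receptor phosphatase gene Ptprd, scored 156. Its peak at chr16:93341641-93341866 scored 154 and lay 1.85 kb from the lncRNA gene 1810053B23Rik and 241.6 kb from Setd4. Those at chr9:25364285-25364520, 55.7 kb beyond Septin7, and at chr5:97766482-97766704, 118.0 kb beyond the anthrax toxin receptor gene Antxr2, scored 121 and 113. None of the 4 had a partner in series 1, and their widths of 223 to 236 bp were near the narrowest of the list.

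Besides those on chromosomes 9, 14 and Y, the widest far peaks of series 1 were chr6:74319620-74321512 with 1893 bp and a score of 15, 850.0 kb from 4931417E11Rik, and chr2:92716451-92718234 with 1784 bp and 13, 101.2 kb from Chst1, a sulfotransferase gene. In series 2 they were chr12:50757179-50758891 with 1713 bp and a score of 17, 107.9 kb from the kinase gene Prkd1, then chr4:21004419-21006105 with 1687 bp and 14, 223.7 kb from Nkain3, and chr8:97597323-97598901 with 1579 bp and 12, 1426 kb from the cadherin gene Cdh8. None of the 5 touched the other list.

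Most far peaks had no other far peak of their list close by. Another far peak of the same list lay within 10 kb of 59 far peaks in series 1 (3.65%, exact binomial 95% interval 2.79 to 4.68%), where 22.0% of peaks in coding genes had a neighbour of their class at that distance (20.9 to 23.2%). In series 2 it was 125 far peaks (4.32%, 3.61 to 5.12%), where 19.5% of coding peaks had one (18.5 to 20.5%). Far peaks were also the sparser class per megabase, and the part of this in the difference was not tested. Joined over gaps of up to 50 kb within a list, 1370 of the 1617 far peaks of series 1 and 2357 of the 2895 of series 2 joined no other far peak. Peaks that were not far from genes did not count as neighbours of far peaks. Distances to the nearest peak of any class were not computed.

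After chromosome 9, the largest groups held 3 to 6 peaks. In series 1 a group of 4 at chr14:114125327-114150692, 941.5 kb upstream of the glypican gene Gpc5, had scores from 12 to 62. Groups of 3 at chr11:16232993-16246919 beside Vstm2a and chr18:81015963-81060796 beside Sall3, a zinc finger regulator of development, reached 45 and 50. In series 2, groups of 4 lay 55.7 kb from Tmem182, 250.5 kb upstream of Nr2f1, an orphan nuclear receptor gene, and 73.9 kb from Zfp521, with scores of at most 22, and a further group of 4 lay 521.9 kb from Cypt14 on the X chromosome. Over both lists, 6 peaks at chr3:4277565-4432924 in the desert beside Hnf4g, a nuclear receptor gene, came 3 from each list, with scores of 11 to 32. A group of 5 at chr1:121814567-121949516 beside Ddx18, a helicase gene, had 1 peak of series 1 with a score of 61 and 4 of series 2. A group of 5 at chr13:78444891-78481739 upstream of Nr2f1 joined 1 peak of series 1 to the 4 of series 2.

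The stretch beyond the 3′ end of Gata3 held far peaks in both lists. Gata3 encodes a transcription factor of T cell development that is also used in epithelia. It was the nearest coding gene for 6 far peaks in each list over 1.08 Mb of far territory, 5.57 per Mb (exact Poisson 95% interval 2.04 to 12.1) in each. This interval lay above the 1.22 per Mb of all far territory in series 1 and included the 2.19 of series 2. Gata3 had the most far peaks of the thymocyte genes in each list, and only a few genes were given an interval of their own. The comparison thus describes a gene singled out with a high count and does not test it. In series 1 the scores were 17, 33, 20, 13, 28 and 33, at 860.5, 783.3, 781.3, 370.2, 326.7 and 306.9 kb from the gene. In series 2 they were 17, 31, 12, 12, 17 and 26, at 783.1, 751.4, 738.4, 570.5, 532.2 and 78.1 kb. No peak of the lists touched there, but the series 2 peak at chr2:9073780-9074000 fell between the series 1 peaks at chr2:9073397-9073755 and chr2:9074793-9075783.

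Far peaks had 1073 different nearest coding genes in series 1 and 1792 in series 2. Of these, 558 were the nearest gene in both lists, 52.0% of the first set and 31.1% of the second, although genes beside long deserts have more room for peaks. The most far peaks fell to Pcdh9, with 8 in series 1 and 11 in series 2 over 3.23 Mb, followed by the cadherin gene Cdh8 with 5 and 10, the ephrin gene Efna5 with 4 and 11 and the protocadherin gene Pcdh7 with 4 and 11, named after their values were seen.

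Gene lists relevant to the thymus were compared by how many far peaks had a list gene as nearest coding gene. Their densities stand beside the 1.22 and 2.19 peaks per Mb of all far territory, which includes the sparse X and Y chromosomes. Over the autosomes alone these were 1.37 and 2.38, close to some of the lower bounds below. The 30 thymocyte genes bordered 5.01 Mb of far territory with 17 far peaks in series 1, 3.39 per Mb (1.98 to 5.43), and 20 in series 2, 3.99 per Mb (2.44 to 6.17). Without Gata3 the densities were 2.80 (1.40 to 5.00) and 3.56 (1.95 to 5.97), with the interval above 2.19 no longer kept in series 2. Ptprc, the pan-leukocyte phosphatase gene, had 3 far peaks in series 1 and 2 in series 2, the closest at 5.83 and 206.7 kb. Ets1 had 3 and 4, Arpp21 had 1 and 3, Bcl11b, a regulator of T cell commitment, had 2 in each, and Runx1 and Satb1 had 1 in each. Lef1 had 1 in series 2 alone. Ets1 and Satb1 are named here after their values were seen.

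The 38 medullary epithelial genes bordered 2.08 Mb with 1 far peak in series 1 and 8 in series 2, 0.481 per Mb (0.0122 to 2.68) and 3.85 per Mb (1.66 to 7.58). The series 1 peak lay 9.19 kb beyond Ltbr, the lymphotoxin receptor gene needed for medullary development, and scored 24. Those of series 2 included peaks 14.7 kb from Sox4, 51.4 kb from Fgfr2 and 94.3 kb from Irf8, with scores of 12, 43 and 12. No gene of this list was nearest in both series. The 16 cortical epithelial genes had 3 far peaks in each list, 1.36 per Mb (0.280 to 3.97), with Kitl and Cd83 nearest in both, Ccl25 in series 1 and Il7, with a score of 63, in series 2. The tissue-restricted antigen list, with 59 genes matched, had 4 far peaks in series 1 and 3 in series 2 over 3.71 Mb, 1.08 (0.294 to 2.76) and 0.808 per Mb (0.167 to 2.36). They had Ins1, an insulin gene, as nearest gene in both lists, and Amy2b, a pancreatic amylase gene, in series 1, with the closest peak to Ins1 at 320.5 kb.

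Among 60 developmental regulators, which often border gene deserts, far peaks numbered 34 in series 1, 1.45 per Mb (1.01 to 2.03), and 74 in series 2, 3.16 per Mb (2.48 to 3.96), with 16 genes nearest in both lists. In series 1 the closest lay 10.5 kb from Irx2 and 32.9 kb from Irx5, both homeobox genes, 42.5 kb from Wnt5a, a signalling ligand gene, and 44.1 kb from Nfib, with scores of 35, 39, 17 and 16. In series 2 the closest lay 6.58 kb from Zfhx4, 6.59 kb from Hand2, 7.40 kb from Tbx5 and 14.7 kb from Sox4, transcription factor genes, with scores of 12, 38, 21 and 12. Some genes stand in more than 1 list.

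Around clustered receptor genes far peaks were sparse in series 2. The 1110 olfactory receptor genes bordered 19.8 Mb of far territory with 17 far peaks in series 1, 0.857 per Mb (0.499 to 1.37), and 28 in series 2, 1.41 per Mb (0.938 to 2.04). The 355 vomeronasal receptor genes had 14 and 9, 0.940 per Mb (0.514 to 1.58) and 0.604 per Mb (0.276 to 1.15). In series 2 both intervals lay below the 2.19 of all far territory, and in series 1 neither excluded 1.22. Zinc finger genes, 397 by symbol, had 9 far peaks in series 1, 0.626 per Mb (0.286 to 1.19), and 28 in series 2, 1.95 per Mb (1.29 to 2.81). Their interval lay below 1.22 in series 1 and included 2.19 in series 2.

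Across chromosomes the Y chromosome stood lowest in both lists, and the X chromosome lay below every autosome in series 1 but within their range in series 2. Far peaks per Mb of far territory ran over the autosomes from 0.882 on chromosome 2 to 1.88 on chromosome 18 in series 1, and from 1.69 on chromosome 7 to 2.91 on chromosome 13 in series 2. The X chromosome had 73 far peaks in series 1, 0.666 per Mb (0.522 to 0.837), and 205 in series 2, 1.87 per Mb (1.62 to 2.14). The Y chromosome had 2 and 1 over 85.0 Mb, 0.0235 and 0.0118 per Mb. How much of that territory reads could be aligned to was not examined, and the labels do not give the sex of the mice.

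**Figure D5:**
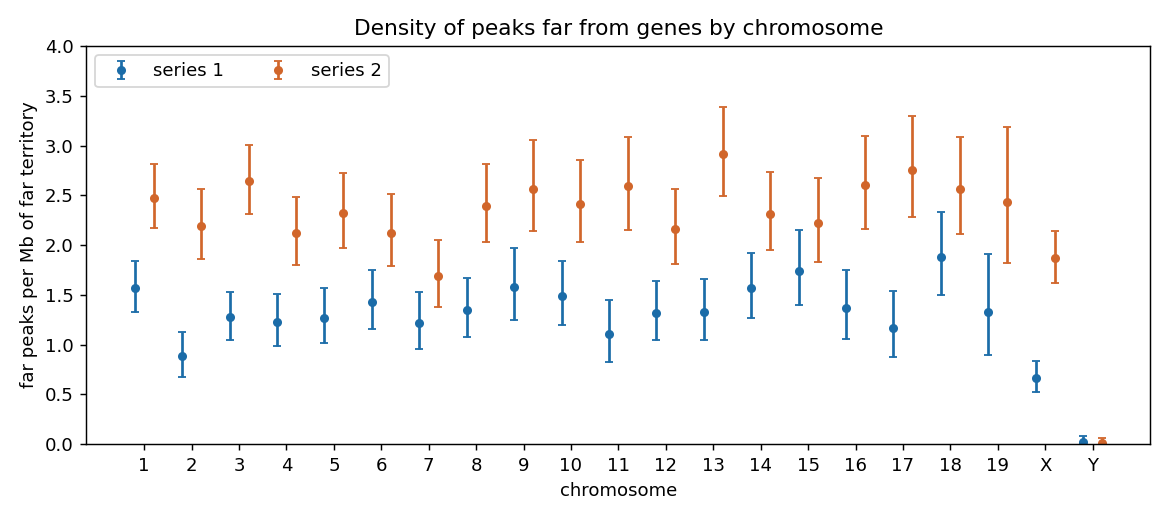
Far peaks per Mb of far territory (y axis) on each chromosome (x axis) in series 1 and series 2, with exact Poisson 95% intervals as bars. The autosomes lie between 0.882 and 1.88 in series 1 and between 1.69 and 2.91 in series 2, the X chromosome has 0.666 and 1.87, and the Y chromosome is near 0.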

How the data were processed

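The submitters' processing notes name Bowtie2, SAMtools and MACS2 on mm10, with no settings. Per the peak names in the files, series 1 was called against 2 inputs together and series 2 against 1. The authors deposited a score per peak whose meaning is not given in the sources used here; depth is unknown. Gene spans came from a RefSeq table on GRCm38.p6 (the same chromosomes as mm10), with 21883 protein-coding and 28056 other genes on chromosomes 1 to 19, X and Y. Strand, known for 17491 coding genes, came from the promoter table. Distances are bases between a peak and a span. Territory was sampled every 100 bp between the first and last gene or peak, assembly gaps included. Peaks were paired when at least 1 bp was shared. The rule for named regions took pairs by score rank, then the 8 highest scores, 5 widest and 5 farthest peaks, the 4 largest groups and the 2 peaks on each side of the limit. Members, lists and rules were chosen with earlier results of these data known. The result for 1 list gene is not reported here. Base composition of far peaks, planned if a genome was given, was not computed. Alternatives are in the closing section. Python 3.11.15, numpy 2.4.6, pandas 2.3.3, scipy 1.17.1 and matplotlib 3.10.9 were used; code was tested on simulated data.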

Additional observations from a re-analysis of the deposited data

How the results depend on the processing

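Over 7 quantities, each a mean of both lists, 36 of 60 alternatives moved the value by less than the SD between the lists, and 24 moved it by more; leaving out either of 2 lists cannot move a mean by its SD and is not counted. Alternatives were set with the design, except the one without 17 peaks at the start of chromosome 9 and beside the highest scored pair, added after seeing the data, which moved none of the 7 beyond that SD but took the share touching the other list to 0.387%. The share of peaks far from genes, 25.3%, became 17.6% beyond 50 kb and 17.7% among peaks wider than 250 bp. The share of peak bases, 21.6%, became 24.7% with no distance limit, 18.3% beyond 20 kb, 15.2% beyond 50 kb and 16.4% among the wider peaks. The share touching the other list, 0.627%, became 0.889% beyond 50 kb, 0.891% and 4.15% at scores of at least 20 and 50, 1.54% among peaks wider than 250 bp and 1.14% within 1 kb. The share beyond 100 kb from a coding gene, 57.4%, became 50.4% with no limit, 68.2% beyond 20 kb, 82.3% beyond 50 kb and 64.9% at a score of at least 50. The share with a neighbour within 10 kb, 3.98%, became 4.47% beyond 50 kb, 2.26% and 3.12% at scores of at least 20 and 50, 2.94% among wider peaks, 0.845% within 2 kb and 16.9% within 50 kb. The median width, 318.5 bp, became 544 bp among wider peaks, and the median score, 17.5, became 25.5 and 63.8 at scores of at least 20 and 50, both by construction. Leaving out either list gave ranges of 22.4 to 28.3%, 20.1 to 23.1%, 0.449 to 0.804%, 54.1 to 60.7%, 3.65 to 4.32%, 221 to 416 bp and 16 to 19 in the same order. Other changes of setting had causes that were not tested. For peaks wider than 250 bp the lists moved unequally and their order turned: in series 1 and 2 the share of peaks was 22.0 and 13.5%, the share of bases 19.9 and 12.9%, the share touching the other list 0.549 and 2.54%, and the median width 460 and 628 bp. The order also turned at a score of at least 50 for the share touching, 3.61 and 4.69%, and for the share beyond 100 kb, 62.7 and 67.2%. There the share with a neighbour was 0 and 6.25%. For the share touching, limits of width and score were set on both lists, so the same pairs were divided by the peaks left in each. Those were 1456 and 315 wider peaks, and 83 and 64 peaks with a score of at least 50, the latter with 3 pairs. The order of these shares follows the number of peaks left. No paired analysis was possible because the input libraries, which go with the ChIP libraries by series, have no peak list here. Far and coding peaks were compared within each list, where 2 lists allow no p below 0.5.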
